A study of Homo sapiens with 9 samples.

Results

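The genes described here encode the collagens, the laminins and the integrins. They were taken from the deposited count table as the protein-coding rows whose symbol is that of a collagen chain, a laminin chain or an integrin subunit, a rule on symbols that uses no level or fold change. This gave 83 genes of the 58735 rows of the table, of which 19951 rows are protein-coding. There were 44 collagen genes, 12 laminin genes and 26 integrin genes, and 1 further symbol, ITGBL1, that fits the pattern and encodes a beta-like protein and not an integrin subunit. RNA-seq was performed on A549, an established cell line from a human lung adenocarcinoma, after transfection with 1 of 3 kinds of plasmid by means of the reagent jetPRIME. The control group received plasmids whose labels read PC3.1, PC3.2 and PC3.3, 1 name per library, the LINC00996 group a plasmid that overexpresses the long non-coding RNA LINC00996, and the AP001189.3 group a plasmid that overexpresses the long non-coding RNA AP001189.3. The study names PC3.1 alone for its control, and the 3 names were read as replicates of 1 control plasmid. Each group held 3 libraries, and all cells had been through transfection, so no group shows A549 without a plasmid. The time from transfection to extraction is not given in the sources used here, and nothing in them says that the 3 libraries of a group came from separate transfections, so the p-values measure the spread between these libraries, which may be technical.

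Collagens, laminins and integrins make up much of the contact between a cell and the matrix around it. Fibrillar collagens form the fibres of connective tissue, collagen IV forms the sheet-like network of basement membranes, and collagens such as VII and XVII anchor epithelia to what lies under them. A laminin is a cross-shaped protein built from an alpha, a beta and a gamma chain, and LAMA3 and LAMB3 are chains of the anchoring laminin of epithelia. An integrin is a pair of an alpha and a beta subunit in the cell membrane. The pair decides the ligand: ITGA2 and ITGA1 with ITGB1 bind collagen, ITGA3 and ITGA6 bind laminin, and ITGA5 with ITGB1 and ITGAV with several beta subunits bind proteins such as fibronectin that carry the sequence arginine, glycine and aspartate.

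Total counts ranged from 15272450 to 18125447 per library. The LINC00996 gene rose from 9, 8 and 4 counts without its plasmid in the control group to 5239, 4373 and 5952 with it, and AP001189.3 from 0, 2 and 1 counts to 1660, 1931 and 2378, as the labels have it. The keratins KRT8 and KRT18 were abundant in every library, CDKN2A, which is deleted in A549, had 0 counts in all of them, which allows up to 3 counts per library, and the 5 fibroblast markers summed to between 1.83 and 2.85 CPM (counts scaled to the library total with TMM factors) in every library. LINC00996 replicate 1 stood apart in its relation to GC content. Spearman's rho across 16552 genes between GC content and a library's level relative to the mean of all 9 was 0.436 in that library, against -0.25 and -0.433 in the other LINC00996 libraries, -0.287 to -0.006 in the control libraries and 0.207 to 0.362 in the AP001189.3 libraries. Genes are not independent replicates, and these values describe the libraries. For the members in which this library stood apart most, values without it are given as well.

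Of the 83 genes, 62 had enough counts to be tested in at least 1 comparison. Another 13 passed 3 counts in some library without reaching the filter, namely COL6A3, COL6A6, COL8A1, COL8A2, COL9A3, COL10A1, COL14A1, COL15A1, COL24A1, LAMA1, ITGA9, ITGAD and ITGAL. The remaining 8 had at most 3 counts in every library, namely COL1A2, COL2A1, COL6A5, COL9A1, COL19A1, COL23A1, COL25A1 and ITGA8, and COL19A1 alone had 0 counts throughout, which allows up to 3 counts in each library. Levels of different genes are compared here only per length, as the deposited FPKM (fragments scaled by gene length and by the library's total). In the control group, ITGB1, the beta subunit shared by the receptors for collagen, laminin and fibronectin, stood highest at 416 ± 3.7 FPKM (SD, n = 3). It was followed by the fibrillar collagen chain COL5A2 at 186 ± 7.6, the laminin chain LAMA5 at 185 ± 12.7 and the laminin receptor subunit ITGA3 at 140 ± 3.57 FPKM (SD, n = 3 each). The ranges of COL5A2 and LAMA5 overlapped, so their order was not resolved. The place of ITGA3 rests on its deposited length of 9802 bases, against 5479 for its longest transcript. Next came LAMB3 at 133 ± 2.72, ITGB5 at 131 ± 5.04, ITGA2 at 114 ± 4.53, ITGB4 at 91.3 ± 4.38, LAMC1 at 70.8 ± 0.784 and LAMB1 at 58.8 ± 1.32 FPKM. The means of LAMB3 and ITGB5 differed by less than their SD, so their order was not resolved.

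**Figure D1:**
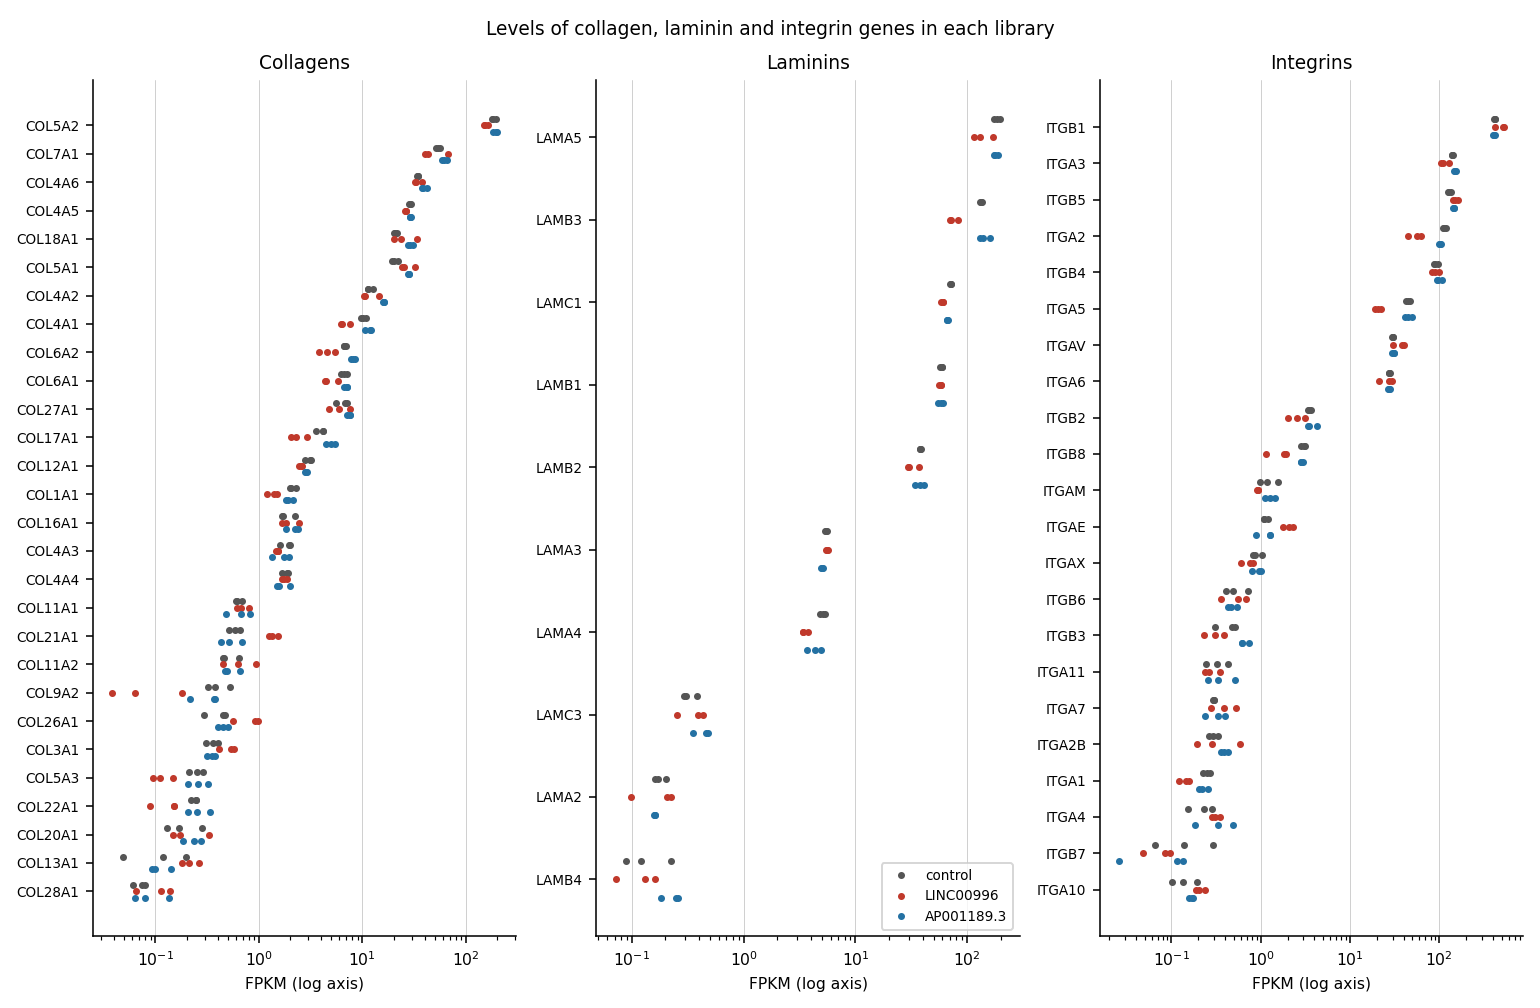
FPKM of tested collagen, laminin and integrin genes in each of the 9 libraries, on a log axis, with genes ordered by their control mean and 1 point per library coloured by group. ITGB1 is the highest of all at 416 FPKM in the control group, and ITGA5, ITGA2 and LAMB3 show the LINC00996 libraries clear of the other 6.

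The chains of some trimers were far from equal in RNA. COL1A1, the main chain of the fibrillar collagen of skin and bone, was counted 347, 362 and 343 times in the control group, while its usual partner COL1A2 had at most 1 count in any of the 9 libraries. In the collagen V family COL5A2 stood at 186 FPKM in the control group, COL5A1 at 20.5 ± 1.23 and COL5A3 at 0.25 ± 0.0378 FPKM (SD, n = 3). Among the chains of the epithelial laminin, LAMA3 stood at 5.47 ± 0.133 and LAMB3 at 133 FPKM in the control group. The deposited lengths can exceed the longest transcript, at 14678 against 10661 bases for LAMA3, 14738 against 6616 for COL4A1 and 19293 against 6494 for COL4A2, which sets the FPKM of such genes lower than a length of 1 transcript would. The other collagens above 10 FPKM in the control group were COL7A1 at 53.5 ± 2.66, COL4A6 at 34.2 ± 0.436, COL4A5 at 28.9 ± 0.544, COL18A1 at 20.7 ± 0.746, COL4A2 at 11.8 ± 0.832 and COL4A1 at 10.2 ± 0.491 FPKM (SD, n = 3 each). The integrin subunits restricted to leukocytes and platelets were low, with ITGB2, ITGAM, ITGAX and ITGA2B at 3.48, 1.25, 0.911 and 0.298 FPKM.

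With the LINC00996 plasmid, genes of all 3 families were lower than in the control group, and few were higher. Of the 59 members tested in this comparison, 18 were lower and 4 were higher at an adjusted p under 0.05 from edgeR's quasi-likelihood test, corrected over all 16097 genes tested. Of all genes tested, 11.6% were called lower and 10.7% higher, and with scaling to library size alone the calls were 1669 lower and 2006 higher, against 1866 and 1722 with TMM. The corresponding shares of the members were 30.5% and 6.78%, and the median log2 fold change was -0.087 for the members and 0.013 for all genes. Laminins had 5 of 11 tested genes lower and 0 higher, integrins 5 of 21 lower and 1 higher, and collagens 8 of 27 lower and 3 higher. In each of the 22 members called, the 3 values of 1 group did not overlap those of the other, which was also so in 13 of the 37 members not called. Overlap was not counted over all genes, so these counts do not set the members apart. In bulk RNA, fewer cells that express a gene and less RNA per cell cannot be told apart. Marker sums moved with the groups as well. The 8 epithelial markers summed to between 16063 and 18618 CPM with LINC00996 and between 11174 and 11236 CPM in the control group. They did not move together, with ALDH1A1 at a mean of 5827 against 2928 CPM, ALDH3A1 at 1671 against 526 CPM and AKR1B10 at 1371 against 717 CPM, while KRT18 was at 2358 against 2211 CPM and KRT19 at 225 against 296 CPM. The 4 endothelial markers, of which 2 had at most 3 counts in every library, summed to between 5.26 and 6.49 CPM against 11.6 to 13.1 CPM. Their part in the results was not tested.

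**Figure D2:**
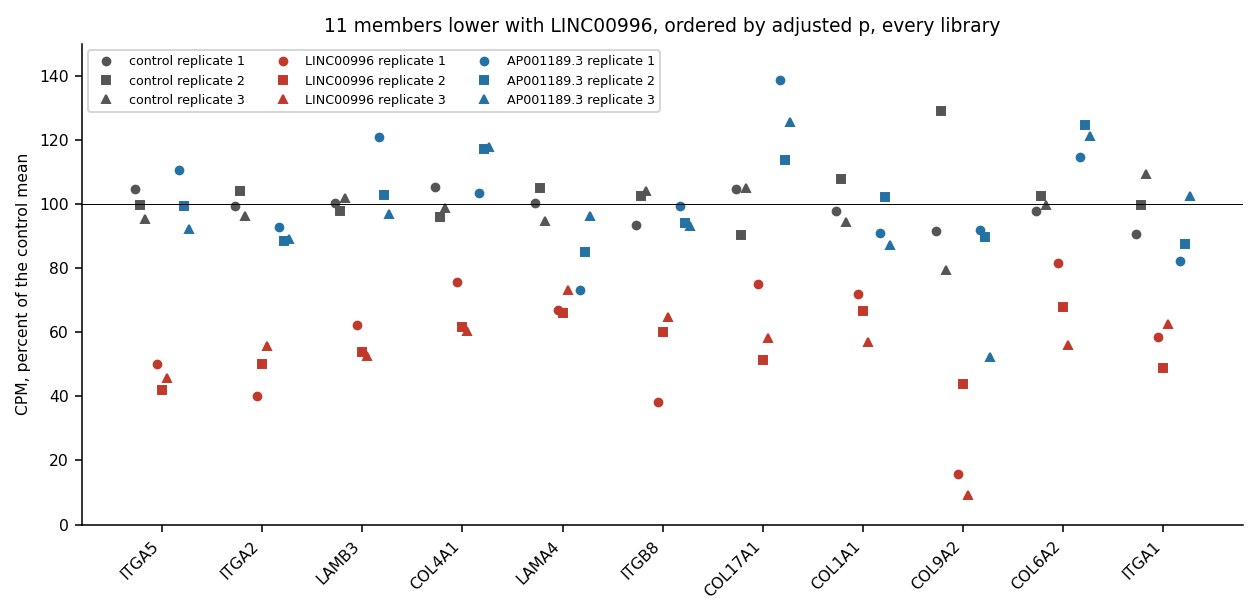
Level of 11 members lower with LINC00996, ordered by adjusted p, as CPM in percent of the mean of the 3 control libraries, with 1 symbol per library. In all 11 genes the LINC00996 libraries lie below the control libraries, and in ITGA2 and ITGB8 replicate 1 is the lowest of its group.

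Of the alpha subunits tested, 1 of 3 that bind the sequence arginine, glycine and aspartate was lower, and 2 of 4 that bind collagen. Of all genes tested, 11.6% were called lower. ITGA5 (ENSG00000161638, chromosome 12 from 54395261 to 54419460 on the minus strand of GRCh38), the alpha subunit of the main fibronectin receptor, stood at 361, 344 and 329 CPM in the control libraries and at 173, 144 and 158 CPM with LINC00996. The AP001189.3 libraries, at 381, 343 and 318 CPM, lay in and around the control range. The log2 fold change with LINC00996 against control was -1.12 (SE 0.095, adjusted p = 1.14e-05), a level 2.18-fold lower, and the smallest adjusted p of all members. ITGA2 (ENSG00000164171, chromosome 5 from 52989326 to 53094779), the alpha subunit of a collagen receptor of epithelia and platelets, stood at 900, 943 and 873 CPM in the control libraries and at 362, 453 and 504 CPM with LINC00996. Its log2 fold change was -1.04 (SE 0.11, adjusted p = 7.14e-05), and without LINC00996 replicate 1, the lowest library, it was -0.92 (adjusted p = 5.77e-13). The other collagen-binding subunit called, ITGA1, fell from 4.23, 4.67 and 5.12 CPM to 2.74, 2.28 and 2.92 CPM, with an adjusted p of 0.0145. That call was lost when control replicate 2, control replicate 3 or LINC00996 replicate 2 was left out, with adjusted p between 0.0525 and 0.0626. ITGA10 and ITGA11, the remaining collagen-binding subunits, were not called.

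The sequences before the start sites of ITGA5, ITGA2 and LAMB3 are shown because these members had the smallest adjusted p of those that fell. They come from RefSeq on GRCh38.p14 and run 5′ to 3′ on the strand of the gene, from 250 bases before the start site through the first 10 bases from it, with matches in capitals to TGANTCA, the letters bound by the AP-1 factors, and to GGGCGG, the GC box, on either strand. The windows are chr12:54419257-54419516 on the minus strand for ITGA5, chr5:52989102-52989361 on the plus strand for ITGA2 and chr1:209651365-209651624 on the minus strand for LAMB3. LAMB3 has 3 start sites in RefSeq, and the window shown is the only one of them with a TGANTCA match.
ITGA5: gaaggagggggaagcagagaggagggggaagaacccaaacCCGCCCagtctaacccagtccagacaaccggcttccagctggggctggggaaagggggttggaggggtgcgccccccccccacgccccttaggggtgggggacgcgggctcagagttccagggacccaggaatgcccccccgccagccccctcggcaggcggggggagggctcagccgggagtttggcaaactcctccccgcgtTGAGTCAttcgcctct
ITGA2: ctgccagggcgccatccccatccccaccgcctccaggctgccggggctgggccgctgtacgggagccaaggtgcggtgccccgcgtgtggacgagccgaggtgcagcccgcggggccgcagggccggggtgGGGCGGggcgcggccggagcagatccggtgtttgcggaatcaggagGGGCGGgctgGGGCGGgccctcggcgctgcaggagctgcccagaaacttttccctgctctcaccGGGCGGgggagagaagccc
LAMB3: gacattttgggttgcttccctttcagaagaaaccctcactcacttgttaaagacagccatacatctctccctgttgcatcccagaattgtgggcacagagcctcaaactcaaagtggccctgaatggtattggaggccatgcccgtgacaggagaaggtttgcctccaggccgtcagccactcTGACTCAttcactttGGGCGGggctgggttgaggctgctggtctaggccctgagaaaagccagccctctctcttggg
ITGA5 had a TGANTCA match at -6, which spans the start site, and LAMB3 had one at -67, while the ITGA2 window held none and had 4 GC boxes. Over windows of 300 bases, TGANTCA was found in 7.7% of all 35116 RefSeq promoters and in 4 of 78 promoters (5.1%) of the 59 member genes with an entry, and GGGCGG in 45% of all and 56.4% of member promoters. No motif searched contains another. The matches are letters in these windows and do not show a bound factor.

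Of the laminin-binding subunits, ITGA3 was 1421, 1367 and 1361 CPM in the control libraries and 1289, 1082 and 1041 CPM with LINC00996. Its log2 fold change was -0.28 (SE 0.09, adjusted p = 0.0465), the weakest of the calls, and the call was kept only without LINC00996 replicate 1 (log2 fold change -0.38, adjusted p = 1.72e-06) among the 6 fits that left out 1 library. ITGA6, its relative in hemidesmosomes, and ITGB4, the partner of ITGA6, were not called, and the log2 fold change of ITGA6 was -0.08 with all libraries and 0.04 without LINC00996 replicate 1. ITGB8, which pairs with ITGAV in a receptor that releases active TGF-beta, stood at 42.8, 46.9 and 47.7 CPM in the control libraries and at 17.6, 27.5 and 29.7 CPM with LINC00996. The log2 fold change of ITGB8 was -0.88 (SE 0.17, adjusted p = 0.00295), and without LINC00996 replicate 1 it was -0.68 (adjusted p = 8.5e-07).

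The beta subunit ITGB1 was not called in this comparison, at 2524, 2532 and 2497 CPM in the control libraries and 2584, 3143 and 3217 CPM with LINC00996 (log2 fold change 0.24, SE 0.09, adjusted p = 0.0766). All 3 LINC00996 libraries lay above the control libraries, replicate 1 by the least, and without that replicate ITGB1 was called higher at a log2 fold change of 0.34 (adjusted p = 3.63e-06). ITGAV stood at 247, 250 and 250 CPM in the control libraries and 250, 319 and 331 CPM with LINC00996 and was not called (log2 fold change 0.27, adjusted p = 0.094). Replicate 1 alone lay at the control level, and without it ITGAV was called higher at a log2 fold change of 0.39 (adjusted p = 4.37e-06). Of all 16508 genes tested without that replicate, 2621 were called higher and 2860 lower, against 1722 and 1866 with all libraries. Every call gained without that replicate is to be read beside these counts. ITGB5, a partner of ITGAV, stood at 131 ± 5.04 FPKM in the control group and 152 ± 9.9 FPKM with LINC00996 and was not called (log2 fold change 0.21, adjusted p = 0.0919). It was called higher in 4 of 14 alternatives, among them the fit without LINC00996 replicate 1 (0.16, adjusted p = 0.0258) and the one with an offset for GC content (0.20, adjusted p = 0.0133). The subunit that rose was ITGAE, known from T cells within epithelia, where it binds E-cadherin. ITGAE stood at 7.29, 7.28 and 8.22 CPM in the control libraries, at 15.4, 14.1 and 12.1 CPM with LINC00996 and at 5.91, 8.58 and 8.42 CPM with AP001189.3. The log2 fold change with LINC00996 was 0.86 (SE 0.15, adjusted p = 0.00152). Of its exonic bases 6.4% are shared with HASPIN on the opposite strand, and the strand setting of the counting is not given in the sources used here, so reads of both genes cannot be told apart there.

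Ratios within a library remove its scaling but not its relation to GC content. In all, 11 such ratios were compared in 3 pairs of groups, giving 33 tests. An exact two-sided permutation test of 3 libraries against 3 cannot give a p under 0.1, which is 0.157 after adjustment over the 33 tests. The ratio of ITGA5 to ITGB1 in FPKM was 0.109 ± 0.0046 in the control group, 0.0428 ± 0.00897 with LINC00996 and 0.11 ± 0.0122 with AP001189.3 (SD, n = 3 each). The ratio of ITGA2 to ITGB1 was 0.273 ± 0.0089 in the control group, 0.112 ± 0.00649 with LINC00996 and 0.246 ± 0.0108 with AP001189.3. In both ratios the LINC00996 libraries lay apart from the control libraries, and the exact permutation p was 0.1, the smallest that is possible. The ratio of ITGAV to ITGB1 was 0.0723 ± 0.000837 in the control group and 0.0735 ± 0.00229 with LINC00996, and these ranges overlapped (exact permutation p = 0.5). Of the alpha subunits set against ITGB1, ITGA3 also had a lower ratio with LINC00996, at 0.238 ± 0.0587 against 0.337 ± 0.00736, and replicate 1, at 0.306, lay nearer to the control libraries than replicates 2 and 3, at 0.211 and 0.198.

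**Figure D3:**
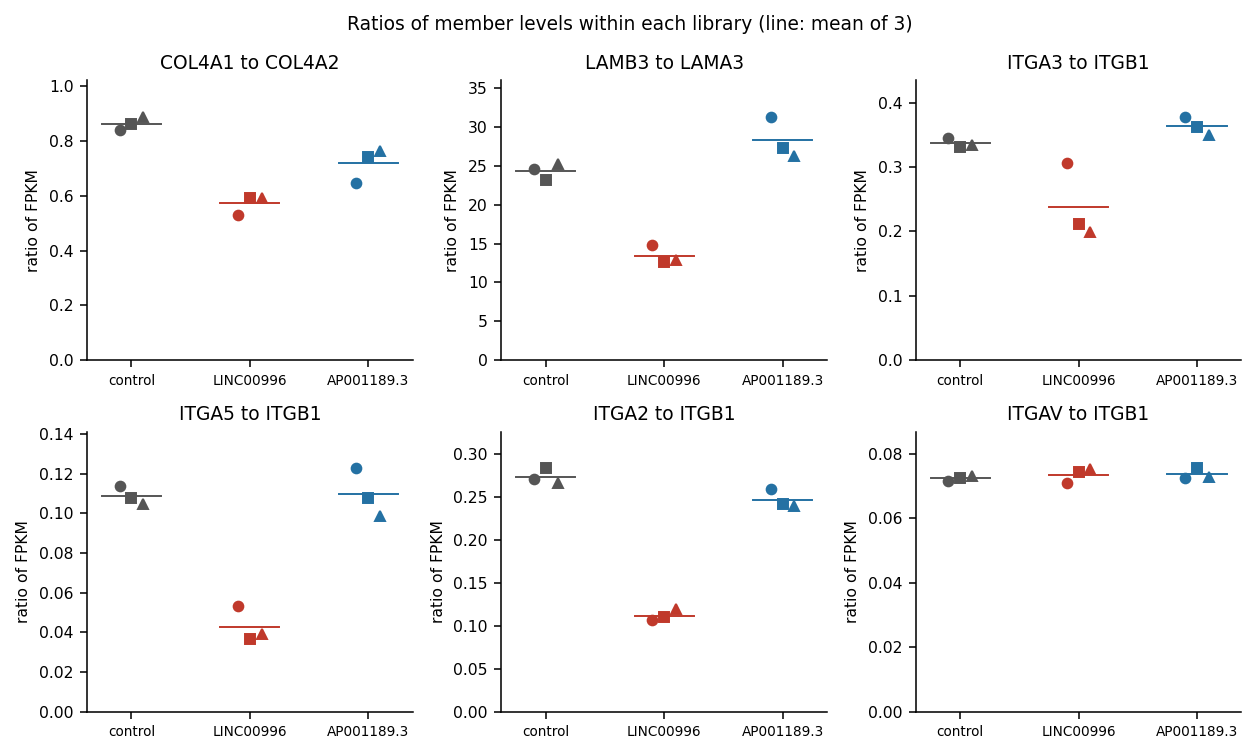
Ratios of FPKM between pairs of genes within each library, with 1 symbol per library (circle, square and triangle for replicates 1 to 3) and a line at the mean of 3, each axis starting at 0. The ratios of ITGA5, ITGA2 and ITGA3 to ITGB1 and of LAMB3 to LAMA3 are lowest in the LINC00996 libraries, while ITGAV to ITGB1 lies between 0.0709 and 0.0755 in all 9.

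Of the chains of the epithelial laminin, LAMB3 fell while the alpha chain LAMA3 was not called. LAMB3 (ENSG00000196878, chromosome 1 from 209614870 to 209652466 on the minus strand) stood at 631, 614 and 640 CPM in the control libraries and at 391, 338 and 331 CPM with LINC00996, and the groups did not overlap. The log2 fold change was -0.83 (SE 0.09, adjusted p = 7.43e-05), a level 1.78-fold lower. LAMA3 was 80.2, 83.1 and 79.4 CPM in the control libraries and 82.8, 83.9 and 80.9 CPM with LINC00996, and the groups overlapped. The ratio of LAMB3 to LAMA3 in FPKM was 24.3 ± 1.08 in the control group, 13.4 ± 1.21 with LINC00996 and 28.3 ± 2.66 with AP001189.3 (SD, n = 3 each). No pair of groups overlapped in this ratio, and each of these comparisons gave the smallest possible exact permutation p of 0.1. The GC content of the longest transcript is 58.9% for LAMB3 and 50.7% for LAMA3, and its part in the ratio was not tested.

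LAMA4, an alpha chain best known from vessel walls, fell from 59.7, 62.4 and 56.2 CPM to 39.8, 39.3 and 43.5 CPM with LINC00996 (log2 fold change -0.54, SE 0.10, adjusted p = 0.00254). LAMA5, the alpha chain of most adult basement membranes, stood at 2844, 2666 and 2488 CPM in the control libraries and at 2448, 1856 and 1646 CPM with LINC00996 (adjusted p = 0.0302), and LAMC1, the gamma chain of most laminins, at 603, 602 and 593 CPM and at 496, 509 and 517 CPM (adjusted p = 0.0442). Both calls were kept in 1 of the 6 fits that left out 1 library, the one without LINC00996 replicate 1. The log2 fold change of LAMA5 was -0.43 with that replicate and -0.61 without it. LAMB1 was not called, at 58.8 ± 1.32 FPKM in the control group and 57.2 ± 1.49 with LINC00996. LAMB2, at 263, 260 and 266 CPM in the control libraries and 259, 209 and 205 CPM with LINC00996, was not called with all libraries (adjusted p = 0.129) and was called lower without LINC00996 replicate 1 (log2 fold change -0.35, adjusted p = 3.28e-05).

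The collagen IV chains lie head to head in pairs, and the pair COL4A1 and COL4A2 behaved unequally. COL4A1 starts at base 110307157 of chromosome 13 and runs on the minus strand, COL4A2 at 110307284 on the plus strand, and the 126 bases between are shown, from RefSeq on GRCh38.p14 at chr13:110307158-110307283 on the plus strand, since the members on both sides of it differed. Capitals mark CCAAT and GGGCGG on either strand.
COL4A1 to COL4A2: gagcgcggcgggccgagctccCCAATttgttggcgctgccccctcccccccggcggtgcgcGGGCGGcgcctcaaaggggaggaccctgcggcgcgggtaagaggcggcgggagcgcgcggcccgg
CCAAT was found in 34.6% of all RefSeq promoters and in 25.6% of those of the members. COL4A1 stood at 159, 146 and 149 CPM in the control libraries, 114, 93.4 and 91.5 CPM with LINC00996 and 157, 177 and 179 CPM with AP001189.3. COL4A2 stood at 248, 221 and 220 CPM in the control libraries, 282, 206 and 202 CPM with LINC00996 and 317, 312 and 306 CPM with AP001189.3. With LINC00996, COL4A1 had a log2 fold change of -0.60 (SE 0.11, adjusted p = 0.00188), while COL4A2 was not called (log2 fold change 0.00, adjusted p = 0.994). Without LINC00996 replicate 1, in which COL4A2 was above the control libraries, COL4A2 was called lower at a log2 fold change of -0.17 (adjusted p = 0.0398) and COL4A1 stood at -0.71 (adjusted p = 1.27e-09). The ratio of COL4A1 to COL4A2 in FPKM was 0.864 ± 0.024 in the control group, 0.572 ± 0.0362 with LINC00996 and 0.718 ± 0.0631 with AP001189.3 (SD, n = 3 each). No pair of groups overlapped in this ratio, and the exact permutation p was 0.1 in each, the smallest possible. The GC content of the longest transcript is 55.4% for COL4A1 and 62.0% for COL4A2.

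The members of the other collagen IV pairs were not called with LINC00996. COL4A3 and COL4A4, whose starts lie 418 bases apart on chromosome 2, were at 1.85 ± 0.231 and 1.82 ± 0.129 FPKM in the control group and 1.51 ± 0.0386 and 1.76 ± 0.0906 FPKM with LINC00996. COL4A5 and COL4A6, with 379 or 1415 bases between their starts on chromosome X, were at 28.9 ± 0.544 and 34.2 ± 0.436 FPKM in the control group and 26.2 ± 0.56 and 34.3 ± 3.15 FPKM with LINC00996. The ratio of COL4A5 to COL4A6 was 0.845 ± 0.00717 in the control group, 0.767 ± 0.0823 with LINC00996 and 0.737 ± 0.0392 with AP001189.3. Neither plasmid group overlapped the control group in it, and the exact permutation p was 0.1 for both. With LINC00996, replicate 1 was at 0.672 and replicates 2 and 3 at 0.817 and 0.811, against 0.837 to 0.851 in the control group. The GC content of the longest transcript is 50.9% for COL4A5 and 54.6% for COL4A6. By the deposited FPKM both chains stood above COL4A1 and COL4A2 in the control group, with the limit on lengths given above.

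Outside collagen IV, 7 collagen genes were lower with LINC00996. COL17A1, the transmembrane collagen of hemidesmosomes, stood at 29.3, 25.3 and 29.4 CPM in the control libraries and 21.0, 14.4 and 16.3 CPM with LINC00996 (log2 fold change -0.70, SE 0.15, adjusted p = 0.00574, and -0.87 without replicate 1). COL1A1 stood at 20.4, 22.5 and 19.7 CPM and at 15.1, 13.9 and 11.9 CPM (log2 fold change -0.62, SE 0.13, adjusted p = 0.00635). COL9A2, a chain of the cartilage collagen IX, fell from 27, 36 and 24 counts in the control group to 5, 12 and 3 with LINC00996 (log2 fold change -2.15, SE 0.48, adjusted p = 0.00799), the largest fold of the members called and one that rests on few counts. The collagen VI chains COL6A1 and COL6A2, which form beaded filaments around cells, were both lower. COL6A2 went from 35.8, 37.5 and 36.4 CPM to 29.8, 24.9 and 20.4 CPM (log2 fold change -0.55, SE 0.14, adjusted p = 0.0137), and the call was lost without control replicate 2 (adjusted p = 0.0623) or control replicate 3 (adjusted p = 0.0528). COL6A1 was 35.4, 33.8 and 38.3 CPM and 31.3, 23.3 and 24.0 CPM (log2 fold change -0.45, adjusted p = 0.0291, and -0.60 without replicate 1). COL5A2, the most abundant collagen, stood at 1373, 1353 and 1464 CPM in the control libraries and 1250, 1128 and 1147 CPM with LINC00996 (log2 fold change -0.25, adjusted p = 0.0437), and COL5A3 had 33, 23 and 30 counts against 12, 16 and 14 (adjusted p = 0.0337). COL6A1 and COL5A2 kept their call only without LINC00996 replicate 1 among the fits with 1 library left out, and COL5A3 in none of those 6 (adjusted p from 0.05 to 0.125).

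There were 3 collagen genes higher with LINC00996. COL21A1, a collagen of the kind that coats fibrils, stood at 3.65, 4.67 and 4.20 CPM in the control libraries, at 9.03, 11 and 9.57 CPM with LINC00996 and at 4.90, 3.06 and 3.64 CPM with AP001189.3. Its log2 fold change was 1.24 (SE 0.17, adjusted p = 0.000347), a level 2.36-fold higher. COL5A1, the regulatory chain of collagen V, stood at 246, 227 and 220 CPM and at 368, 283 and 269 CPM with LINC00996 (log2 fold change 0.41, SE 0.12, adjusted p = 0.0276), so the chains COL5A1 and COL5A2 moved in opposite directions. Replicate 1 was the highest library in COL5A1, and without it the log2 fold change was 0.26 (adjusted p = 0.00165), while the call was lost without any 1 of the control replicates (adjusted p from 0.062 to 0.12). COL26A1 rose from 16, 23 and 26 counts in the control group to 57, 46 and 33 with LINC00996 (log2 fold change 1.01, SE 0.32, adjusted p = 0.0383), and the call was lost with DESeq2 (adjusted p = 0.0598) and kept only without LINC00996 replicate 3 among the fits with 1 library left out. COL7A1, the anchoring fibril collagen, stood at 627, 594 and 570 CPM in the control libraries and 757, 482 and 449 CPM with LINC00996. It was not called with all 3 libraries and was called lower without replicate 1, at a log2 fold change of -0.36 (adjusted p = 1.81e-05). COL18A1, the source of endostatin, was 185, 177 and 173 CPM in the control libraries and 295, 201 and 175 CPM with LINC00996, without a call (log2 fold change 0.33, adjusted p = 0.157). Its log2 fold change was 0.08 without replicate 1 (adjusted p = 0.4) and 0.48 without replicate 3 (adjusted p = 0.0172), and COL18A1 was also called higher with an offset for GC content (0.25, adjusted p = 0.0027) and with no filter on low counts (adjusted p = 0.0239).

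With the AP001189.3 plasmid, fewer members were called than with LINC00996, all by less than 1.5-fold. The balance of higher and lower calls changed with an offset for GC content, as given below. Of 61 members tested, 9 were higher and 2 were lower, against 11.4% and 8.49% of the 16023 genes tested. With scaling to library size alone the calls over all genes were 1608 higher and 1719 lower, against 1819 and 1361 with TMM. The shares called among the members were 14.8% and 3.28%. The members' median log2 fold change was 0.064 and that of all genes -0.001. The share called higher was near that of all genes. Among the 27 collagens tested, 8 were higher and 0 lower, among 22 integrins 1 was higher and 1 lower, and among 11 laminins 0 were higher and 1 lower. Of these 8 collagens, only COL18A1, COL5A1 and COL4A2 were still called higher with an offset for GC content. This comparison and that of LINC00996 share the 3 control libraries. The epithelial markers summed to between 12454 and 13064 CPM with AP001189.3, against 11174 to 11236 CPM in the control group. The endothelial markers summed to between 7.28 and 9.57 CPM, against 11.6 to 13.1 CPM. The part of the markers in these results was not tested.

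**Figure D4:**
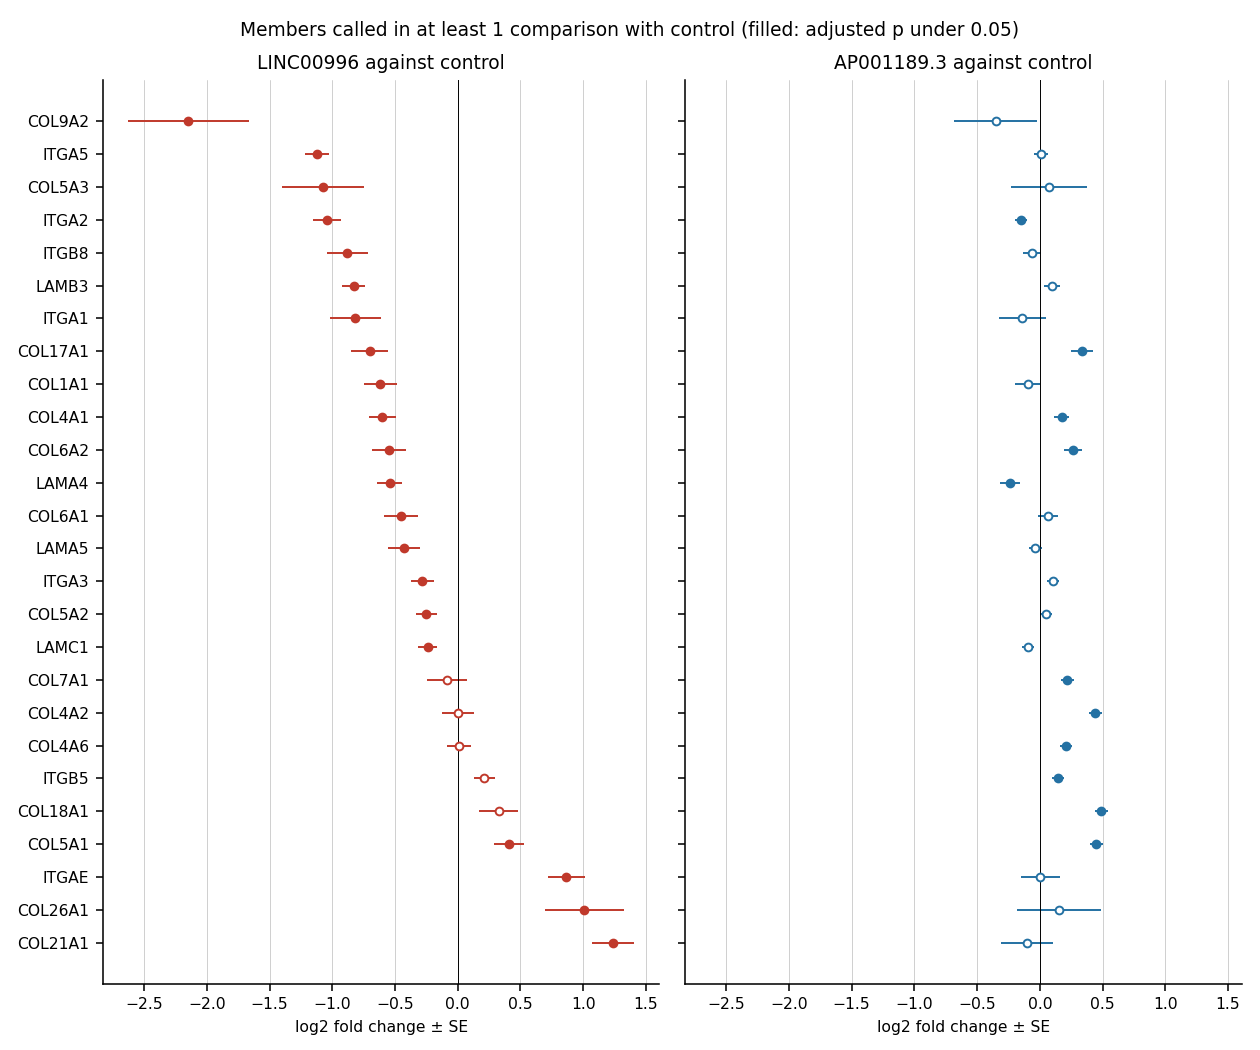
Log2 fold change with its SE for members called in at least 1 comparison with control, at left for LINC00996 and at right for AP001189.3, on the same scale. Filled points passed an adjusted p of 0.05, and the filled AP001189.3 values lie between -0.24 and 0.49.

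COL18A1 stood at 264, 248 and 239 CPM with AP001189.3, above all control libraries (log2 fold change 0.49, SE 0.05, adjusted p = 2.22e-07). Of its exonic bases 16.4% are shared with SLC19A1 on the opposite strand. COL5A1 was 313, 315 and 320 CPM (log2 fold change 0.45, SE 0.05, adjusted p = 5.32e-07) and COL4A2 0.44 higher on the log2 scale (SE 0.05, adjusted p = 1.08e-06). The other members that were higher had smaller differences. COL17A1 was 38.9, 31.9 and 35.3 CPM with AP001189.3, a log2 fold change of 0.34 (adjusted p = 0.00787), and COL6A2 41.9, 45.6 and 44.4 CPM, a log2 fold change of 0.27 (adjusted p = 0.0105). COL7A1 was 735, 690 and 660 CPM (log2 fold change 0.22, adjusted p = 0.00306), COL4A6 391, 364 and 353 CPM (log2 fold change 0.21, adjusted p = 0.00408) and ITGB5 952, 953 and 923 CPM (log2 fold change 0.15, adjusted p = 0.0266). COL4A1, at a log2 fold change of 0.17 (adjusted p = 0.0321), overlapped the control libraries. Its call was lost with DESeq2 (adjusted p = 0.0686), library size scaling (adjusted p = 0.0682) and all 9 libraries in 1 fit (adjusted p = 0.319). That of ITGB5 was lost with library size scaling (adjusted p = 0.0653) and the single fit (adjusted p = 0.267). Both calls were kept in 2 of 6 fits that left out 1 library. The members that were lower were ITGA2, at 839, 800 and 807 CPM (log2 fold change -0.15, SE 0.05, adjusted p = 0.0259), and LAMA4, at 43.6, 50.6 and 57.3 CPM (log2 fold change -0.24, SE 0.08, adjusted p = 0.0406). LAMA4 also overlapped the control libraries, and its call was lost with DESeq2 (adjusted p = 0.075), with the gene length offset (adjusted p = 0.113), with all 9 libraries in 1 fit (adjusted p = 0.214) and without control replicate 1 or 2 or AP001189.3 replicate 1 or 2 (adjusted p from 0.0726 to 0.247).

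These calls moved with GC content. The 9 members that were higher had GC contents from 54.3% to 67.2%, and the 2 that were lower 40.2% and 46.6%, against a median of 53.7% for the 50 members not called, and all 3 AP001189.3 libraries had the positive relation to GC content given above. With an offset for GC content fitted in each library, COL18A1, COL5A1 and COL4A2 remained higher, with log2 fold changes of 0.25 (adjusted p = 0.000409), 0.27 (adjusted p = 0.000109) and 0.24 (adjusted p = 0.000477). The other 6 were no longer called, COL7A1 at -0.01 (adjusted p = 0.911), COL6A2 at 0.03 (adjusted p = 0.882) and COL17A1 at 0.22 (adjusted p = 0.0837) among them. ITGA2 was no longer called (log2 fold change -0.06, adjusted p = 0.426), and 5 members were called lower. Over all genes the offset called 1205 higher and 1245 lower, against 1819 and 1361 without it. In the fit of all 9 libraries with 1 estimate of the spread, the calls of COL5A1 and COL4A2 remained. COL18A1, COL5A1, COL4A2, COL4A6 and COL7A1 kept their call when any 1 of the 6 libraries was left out. The calls of the LINC00996 comparison had no such ordering, with GC contents from 37.8% to 66.4% among the 18 that were lower, and all 22 were still called with the GC offset. Over all genes that offset called 2915 lower and 3100 higher in the LINC00996 comparison, against 1866 and 1722 without it.

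**Figure D5:**
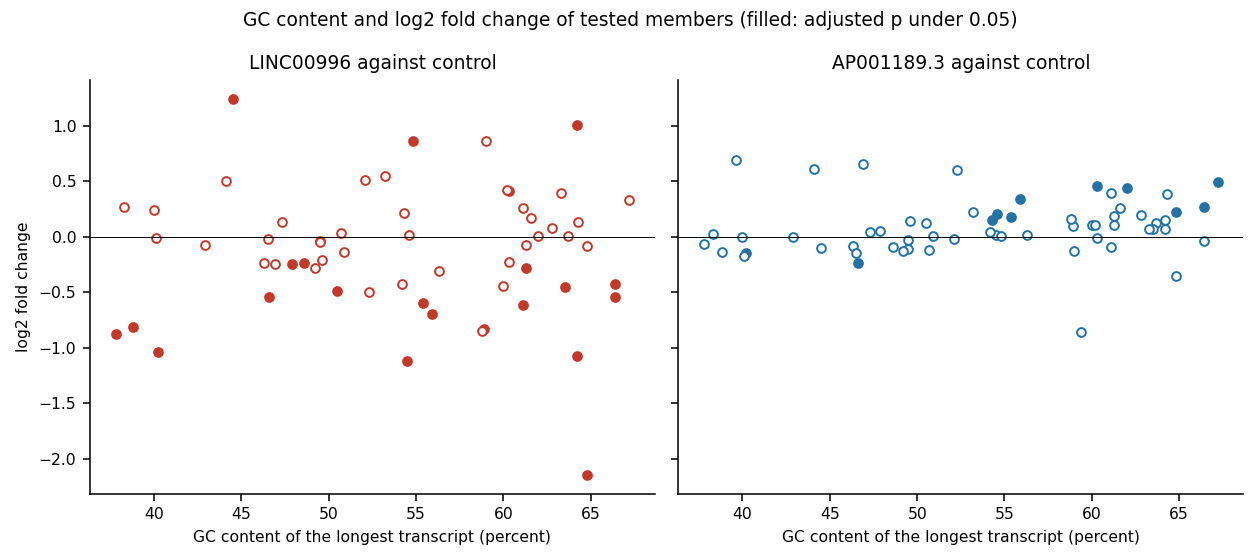
Log2 fold change of each tested member against the GC content of its longest transcript in percent, at left for LINC00996 against control and at right for AP001189.3 against control, with members at an adjusted p under 0.05 filled. At right the filled points above 0 lie at 54.3% GC or more and those below 0 at 40.2% and 46.6%, and at left the filled points below 0 span 37.8% to 66.4%.

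When the plasmids were compared with each other, more members were lower than higher with LINC00996, and most were not called. Of 60 members tested, 20 were lower and 2 higher, against 12.1% and 9.38% of all 16095 genes tested, and the members' median log2 fold change was -0.185 against 0.019 for all genes. With scaling to library size alone the calls over all genes were 1667 lower and 2129 higher, against 1942 and 1510 with TMM. ITGA5 (log2 fold change -1.14, adjusted p = 1.37e-05), LAMB3 (-0.93, adjusted p = 7.75e-05) and ITGA2 (-0.90, adjusted p = 0.000214) had the smallest adjusted p. Also lower were COL4A1 (-0.78, adjusted p = 0.000349), COL17A1 (-1.04, adjusted p = 0.000443), COL6A2 (-0.82, adjusted p = 0.00128), ITGB8 (-0.82, adjusted p = 0.00526) and ITGA3 (-0.40, adjusted p = 0.00835). With an offset for GC content ITGA3 was at -0.23 (adjusted p = 0.00365), LAMA5, at -0.40 without it, at -0.21 (adjusted p = 0.00341) and COL4A2, at -0.44 without it, at -0.29 (adjusted p = 0.000377), and all 3 were still called. ITGB3, the beta subunit of platelet and vessel integrins, had 19, 27 and 25 counts with LINC00996 and 56, 42 and 45 with AP001189.3, a log2 fold change of -1.11 (adjusted p = 0.0114). Without AP001189.3 replicate 1 it was -1.0 and no longer called (adjusted p = 0.0655). Of its exonic bases 51.6% belong also to a readthrough gene on the same strand that had 0 counts. COL6A1 and COL1A1 were lower by 0.52 and 0.53 on the log2 scale (adjusted p = 0.0124 and 0.014). Another 8 that were lower were COL5A2, COL4A2, COL9A2, COL5A3, ITGB2, ITGA1, LAMA5 and COL22A1, with adjusted p from 0.0154 to 0.0421. The 2 that were higher were COL21A1 (log2 fold change 1.34, adjusted p = 0.000505) and ITGAE (0.86, adjusted p = 0.00408). All 22 showed no overlap between the groups, as did 12 of the 38 members not called, and the 2 that were higher and 8 of the 20 that were lower kept their call when any 1 library was left out. Overlap over all genes was not counted.

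Genes that work with these families were described from lists of up to 30 genes each. Of the genes that process collagen, 25 were tested, and 8 were lower (32%) and 3 higher (12%) with LINC00996 against control, where 11.6% and 10.7% of all genes were called. The lower ones included the prolyl hydroxylase subunits P4HA2 (126 ± 4.62 against 191 ± 8.11 CPM, adjusted p = 0.000577), P4HA1 (152 ± 18.8 against 233 ± 13.1 CPM, adjusted p = 0.00149) and P4HB (1051 ± 106 against 1450 ± 50.7 CPM, adjusted p = 0.00318), and the cross-linking enzyme LOX (15.2 ± 3.14 against 28.5 ± 1.44 CPM, adjusted p = 0.00137). Of 26 tested genes for other matrix glycoproteins and proteoglycans, 9 were lower (34.6%) and 4 higher (15.4%). Fibronectin, FN1, the ligand of the ITGA5 receptor, stood at 4321 ± 203 CPM with LINC00996 and 7013 ± 170 CPM in the control group (log2 fold change -0.70, SE 0.07, adjusted p = 5.3e-05). Vitronectin, VTN, stood at 41.9 ± 7.03 against 87.9 ± 11.3 CPM (adjusted p = 0.000224), the basement membrane linker NID2 at 13.8 ± 2.01 against 27.4 ± 3.07 CPM (adjusted p = 0.000562) and the elastic fibre protein FBLN5 at 15.1 ± 0.87 against 26.2 ± 2.04 CPM (adjusted p = 0.000764). NID2 shares 30.0% of its exonic bases with RTRAF on the opposite strand.

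Of 28 tested matrix proteases and inhibitors, 8 were lower (28.6%) and 3 higher (10.7%) with LINC00996, and the lower ones included the plasminogen activator PLAT (16.2 ± 0.936 against 47.5 ± 5.77 CPM), PLAUR, the urokinase receptor (131 ± 9.23 against 266 ± 11.2 CPM), and the metalloproteinase inhibitor TIMP1 (158 ± 9.07 against 226 ± 11.4 CPM). Their log2 fold changes were -1.55, -1.02 and -0.52, and the largest adjusted p was 0.0016. Of 12 other receptors for collagen and laminin, 1 was lower (8.33%) and 2 were higher (16.7%). The lower one was the syndecan SDC4, a co-receptor of the ITGA5 integrin (141 ± 13.5 against 308 ± 18.9 CPM, adjusted p = 1.5e-05). The higher ones were RPSA, a ribosomal protein also described as a laminin receptor (946 ± 32 against 671 ± 40.5 CPM, adjusted p = 0.00133), and the collagen uptake receptor MRC2 (168 ± 37.5 against 124 ± 10.1 CPM, adjusted p = 0.0439), and CD44, at 857 ± 78.2 against 1015 ± 16.8 CPM, was not called.

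With LINC00996 against control, the calls among genes of the adhesion machinery inside the cell were near the background. Of 30 tested, 4 were lower (13.3%) and 3 higher (10%) with LINC00996, against the 11.6% and 10.7% of all genes. TNS3 and TNS1, tensins that link integrins to actin, were lower at 783 ± 27.4 against 979 ± 35.6 CPM (adjusted p = 0.0124) and 51.1 ± 4.89 against 69.9 ± 8.37 CPM (adjusted p = 0.0163). ITGB1BP1, which binds the tail of ITGB1, was higher at 34.9 ± 2.22 against 21.5 ± 0.427 CPM (adjusted p = 0.000909), and shares 33.1% of its exonic bases with ASAP2 on the opposite strand. ILK, the kinase-like partner of integrin tails, was called higher at 2.55 ± 1.68 against 0.493 ± 0.14 CPM (adjusted p = 0.00509), but 68.1% of its exonic bases are shared with TAF10 on the opposite strand, so its level is uncertain. With AP001189.3, where 11.4% of all genes were called higher and 8.49% lower, 9 of the 30 were higher and 3 lower, 4 of the 12 other receptors were higher and 0 lower, 6 of 29 proteases and inhibitors were higher and 3 lower, 2 of 27 glycoproteins were higher and 3 lower, and 3 of 25 processing genes were higher and 5 lower.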

How the data were processed

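RNA-seq reads of A549 were made paired-end by the authors, aligned with HISAT2 2.0.5 and counted per gene with featureCounts 1.5.0-p3 on GRCh38, as the submitters' processing notes and the study's methods state. The authors deposited raw counts per gene, which carry no normalization, and FPKM per library, which they computed from the counts and gene lengths. All 58735 rows have the start and end of GENCODE 29. Counts per library summed to between 15272450 and 18125447. Floors cover counting error only.

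Groups came from the sample titles. Each comparison used its 6 libraries and edgeR 4.0.16 in R 4.3.3 with filterByExpr, TMM and the robust quasi-likelihood test, with Benjamini-Hochberg adjustment over all genes tested. CPM used TMM factors over all 9 libraries. Ratios of FPKM were compared by exact permutation tests. GC content is that of the longest GENCODE 29 transcript. The procedure was tested on simulated counts, whose outcome is not given here. Samples with the same replicate number deviated together with r of 0.186, 0.027 and 0.11 between LINC00996 and control, so the numbers were not used as pairs.

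Values are given in full for members at an adjusted p under 0.05, up to 12 per comparison and direction by smallest adjusted p, for the 5 most abundant members of each family in the control group and for the collagen IV pairs, and for up to 4 genes of each other list. Some genes that the rule selects are counted but not reported here by name. The members and lists were chosen with earlier results of these data known. Alternatives were DESeq2 1.42.0, other scaling and filters, all 9 libraries in 1 fit, offsets for gene length and for GC content (loess, span 0.75), a replicate block, an added fold threshold and leaving out each library. Promoter sequences came from RefSeq, and 59 of the 83 members had an entry.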

Additional observations from a re-analysis of the deposited data

How the results depend on the processing

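The 3 libraries per group limit the precision for members under about 50 counts, such as COL9A2, COL5A3, COL26A1 and ITGB3. The members lower with LINC00996 against control numbered 18 in the main analysis and 10 to 22 when 1 library was left out, and 10 of the 18 kept their call in all 6 such fits. Among these were ITGA5, ITGA2, LAMB3, LAMA4, ITGB8, COL4A1, COL17A1, COL1A1 and COL9A2. Over all genes the 6 fits called 1122 to 2860 lower and 803 to 2621 higher. With the gene length offset 14 were lower, and the calls of LAMA5, COL5A2, ITGA3 and LAMC1 were lost. With library size scaling those of COL5A2, ITGA3 and LAMC1 were lost, with no filter those of COL5A2, LAMC1 and COL5A3, and with DESeq2 that of COL5A3 and the higher call of COL26A1. The members higher in that comparison numbered 2 to 6 with 1 library left out, 7 with all 9 libraries in 1 fit and with the gene length offset, and 8 with the GC content offset. With a log2 difference of 1 or more also required, 4 were lower and 2 higher. Over all genes, the GC content offset called 2915 lower and 3100 higher, against 1866 and 1722. The single fit of all 9 libraries called 2386 and 2273, and the gene length offset 1712 and 1920.

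With AP001189.3 against control, leaving out 1 library gave 6 to 12 members higher and 0 to 2 lower, the GC content offset 3 and 5, all 9 libraries in 1 fit 2 and 0, the gene length offset 11 and 0, DESeq2 8 and 1, and the added fold threshold 0 and 0. Over all genes the single fit called 344 higher and 93 lower in that comparison, against 1819 and 1361. The fits with 1 library left out called 1235 to 1988 higher and 679 to 1610 lower over all genes. The GC content offset called 1205 and 1245, the gene length offset 1564 and 1406, and DESeq2 1379 and 992. With LINC00996 against AP001189.3, leaving out 1 library gave 9 to 32 lower and 2 to 5 higher, with 32 lower when LINC00996 replicate 1 was left out, a fit that over all genes called 3502 lower and 3326 higher. The fewest calls over all genes were 1243 lower and 597 higher, without AP001189.3 replicate 1. The added fold threshold gave 6 lower and 1 higher, and the members higher numbered 5 with library size scaling and with the gene length offset, 4 with all 9 libraries in 1 fit and 9 with the GC content offset, which over all genes called 2651 lower and 3331 higher against 1942 and 1510 with all libraries. Library size scaling moved the median log2 fold change of all genes to 0.048, -0.026 and 0.082 in these comparisons.

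A replicate block gave 19 lower and 5 higher with LINC00996 against control, 2 and 11 with AP001189.3 against control, and 20 and 3 with LINC00996 against AP001189.3. Over all genes the block called 2310 lower and 2190 higher, 1516 and 1950, and 2107 and 1665 in the same order. The replicate number marks no shared culture in the labels, and r between same-numbered libraries was 0.186, 0.027 and 0.11 for LINC00996 and control.

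The sign changed only where no call was made in the main analysis or, for COL7A1 with AP001189.3, where the call was lost with the GC content offset (-0.01). With LINC00996 against control, COL4A2 went to 0.00 with DESeq2, -0.01 with the replicate block, -0.04 with the GC content offset, -0.03 without control replicate 2 or 3 and -0.17 without LINC00996 replicate 1, with a highest value of 0.09 over the fits with 1 library left out and of 0.13 with the gene length offset. COL4A6 and ITGB4 went to 0.00 and -0.03 with the GC content offset, 0.00 and 0.00 without control replicate 2, and both to -0.07 without LINC00996 replicate 1, and ITGB4 to -0.02 without control replicate 3, with highest values of 0.06 and 0.07 over the fits with 1 library left out, and COL4A6 was at 0.1 with the gene length offset. ITGA6 went to 0.04 without LINC00996 replicate 1, with a lowest value of -0.18 without replicate 3. ITGA6, ITGAV and COL6A1 were added to the named members after their values were seen. COL4A4, COL7A1 and LAMB1 went to 0.05, 0.03 and 0.04 with the gene length offset, and COL7A1 to 0.02 and 0.05 without LINC00996 replicate 2 or 3, with a lowest value of -0.36. Of the values of named members under the alternatives, 705 kept their direction and side of the threshold, 95 lost the call, 19 gained one and 20 changed sign. The cause was not tested.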
